A study of Mus musculus with 2 samples.

Results

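Interferon-stimulated genes were examined by RNA-seq in adherent liver cells of Foxf1fl/fl (control) and αSMACreER;Foxf1-/- (knockout) mice after CCl4 injury. Of 40 listed genes, 38 were found by symbol among the 36533 genes with a symbol, and Gbp5 and Irf8 were not analysed here. All 38 genes averaged an FPKM of 1 or more over the libraries, with each estimate marked OK. The genes were listed by name and not by their difference between the genotypes. FPKM is the number of fragments per kilobase of transcript relative to all mapped fragments, so levels of different genes can be set side by side.

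Adult male C57/Bl6 mice of both genotypes received CCl4, a hepatotoxin that damages hepatocytes and causes fibrosis, for 5 weeks. Foxf1fl/fl littermates carried floxed Foxf1 alleles without Cre. αSMACreER;Foxf1-/- mice carried the same floxed alleles with a tamoxifen-inducible Cre under the promoter of α-smooth muscle actin, so deletion is restricted to cells that express this promoter while tamoxifen is present. Liver cells were plated for 2 h and the adherent cells were pooled into 1 library per genotype. Tamoxifen, which triggers the deletion, was injected during the injury period, and the study describes livers of both genotypes under CCl4 with tamoxifen. Since each genotype has 1 library, differences could not be compared with a spread between replicates, and no p-values are given. The recombined gene itself was not analysed here.

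Interferons are cytokines released when cells sense viral or microbial nucleic acid or other danger signals. Type I interferons bind the IFNAR receptor and activate the ISGF3 complex, which contains STAT2 and IRF9 and binds interferon-stimulated response elements (ISRE). Interferon γ acts through its own receptor and γ-activated sequences (GAS) in promoters, and IRF1 carries the signal on. In liver, resident macrophages (Kupffer cells), endothelial cells and hepatocytes all express interferon-stimulated genes, which encode nucleic acid sensors, antiviral effectors and parts of antigen processing.

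The libraries held an estimated 9.76 M mapped reads for Foxf1fl/fl and 11.35 M for αSMACreER;Foxf1-/-, from the spacing of low FPKM values. This estimate is rough, since 49.9% of these values in control and 52.5% in knockout cells came within 0.1 of a whole number of reads. In the cells labelled stromal, the stellate cell markers Des and Lrat were low, at 1.70 and 0.08 FPKM in control and 3.29 and 0.11 in knockout cells, while the matrix genes Dcn (127 and 186) and Col3a1 (115 and 164) were abundant. Macrophage markers reached 3682 and 3395 for Lyz2 and 1117 and 753 for Clec4f, a Kupffer cell marker. Neutrophil and hepatocyte markers separated the libraries, with summed FPKM of 1906 and 762 over 5 neutrophil genes and of 4347 and 1547 over 9 hepatocyte genes. In such mixed RNA, fewer cells of a type and less RNA per cell cannot be told apart.

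Promoter sequences are shown first because they carry the elements through which these genes are known to be induced. RefSeq windows of GRCm38.p6, from 250 bases before to 50 after each start, were matched for 31 of the 38 genes. The ISRE core was searched as GAAANNGAA and the GAS element as TTCNNNGAA, on both strands, and sites of both kinds may overlap. The first 3 sequences are the 150 bases upstream of Isg15, a gene among the lowest in αSMACreER;Foxf1-/- relative to Foxf1fl/fl, and of Gbp7 and Ifih1, both among the highest. They are written 5′ to 3′ on the strand of the gene, with matches to either element in capitals.
Isg15, chr4:156200819-156200968, minus strand: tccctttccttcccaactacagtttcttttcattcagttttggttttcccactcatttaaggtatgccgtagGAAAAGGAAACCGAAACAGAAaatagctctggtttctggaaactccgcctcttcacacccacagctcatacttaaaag
Gbp7, chr3:142530186-142530335, plus strand: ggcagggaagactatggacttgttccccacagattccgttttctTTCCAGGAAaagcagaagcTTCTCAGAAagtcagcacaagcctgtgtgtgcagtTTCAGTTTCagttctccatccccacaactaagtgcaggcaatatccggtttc
Ifih1, chr2:62646256-62646405, minus strand: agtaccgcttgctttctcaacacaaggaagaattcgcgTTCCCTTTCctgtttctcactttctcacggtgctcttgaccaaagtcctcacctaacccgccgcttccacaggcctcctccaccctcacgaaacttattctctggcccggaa

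The Isg15 stretch held 3 overlapping ISRE cores as 1 run of 21 bases, from -78 to -58 relative to the start. The Gbp7 stretch held 2 GAS matches and 1 ISRE core, and the Ifih1 stretch held 1 ISRE core. Overlapping ISRE cores were also found in 6 other genes, printed here with 3 flanking bases on each side and the cores in capitals. They include Eif2ak2, the gene with the largest positive difference between the genotypes.
Ifit1, chr19:34640777-34640797, plus strand: ggcTTCAGTTTCACTTTCcag
Oas1a, chr5:120907528-120907548, minus strand: cggGAAATGGAAACTGAAaat
Oas3, chr5:120777717-120777737, minus strand: ggaGAAAACGAAAGTGAAggg
Bst2, chr8:71537585-71537605, minus strand: cagGAAAATGAAACTGAAagg
Gbp3, chr3:142559997-142560017, plus strand: agtTTCAGTTTCTATTTCcca
Eif2ak2, chr17:78882537-78882557, minus strand: cggGAAAACGAAACAGAAgag
The run of Eif2ak2 lay just after its start, from 19 to 33, and the run of Oas1a lay just before its start, from -20 to -6. The ISRE core was present in windows of 18 of the 31 genes (58.1%). The shares were 9.76% of all 27025 genes with a window and 9.17% of 9444 expressed genes (a mean of 1 FPKM or more). A gene with several windows was counted once, if any of them held the element. The GAS element was present in windows of 8 of the 31 genes (25.8%), compared with 9.55% and 8.50%. Zbp1, Oas2, Parp14, Rtp4, Mx1, Mx2 and Usp18 had no window in the table. A match describes letters and does not show that a factor binds.

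Interferon-stimulated genes were abundant in both libraries. Their summed FPKM was 8927 in control cells and 7451 in knockout cells, which is 1.26% and 1.18% of the summed FPKM of the 36533 genes with a symbol. The median gene had an FPKM of 95.9 and 84.2, compared with 9.18 and 9.44 over the 12701 expressed genes, those that average 1 FPKM or more. Relative to those genes, the median interferon-stimulated gene lay at percentile 91.7 in control and 91.3 in knockout cells. The order of levels ran from Ifitm3, which restricts viral entry at endosomal membranes and had 1895 and 1472, down to Gbp7, a guanylate-binding protein with 8.83 and 13.5.

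**Figure D1:**
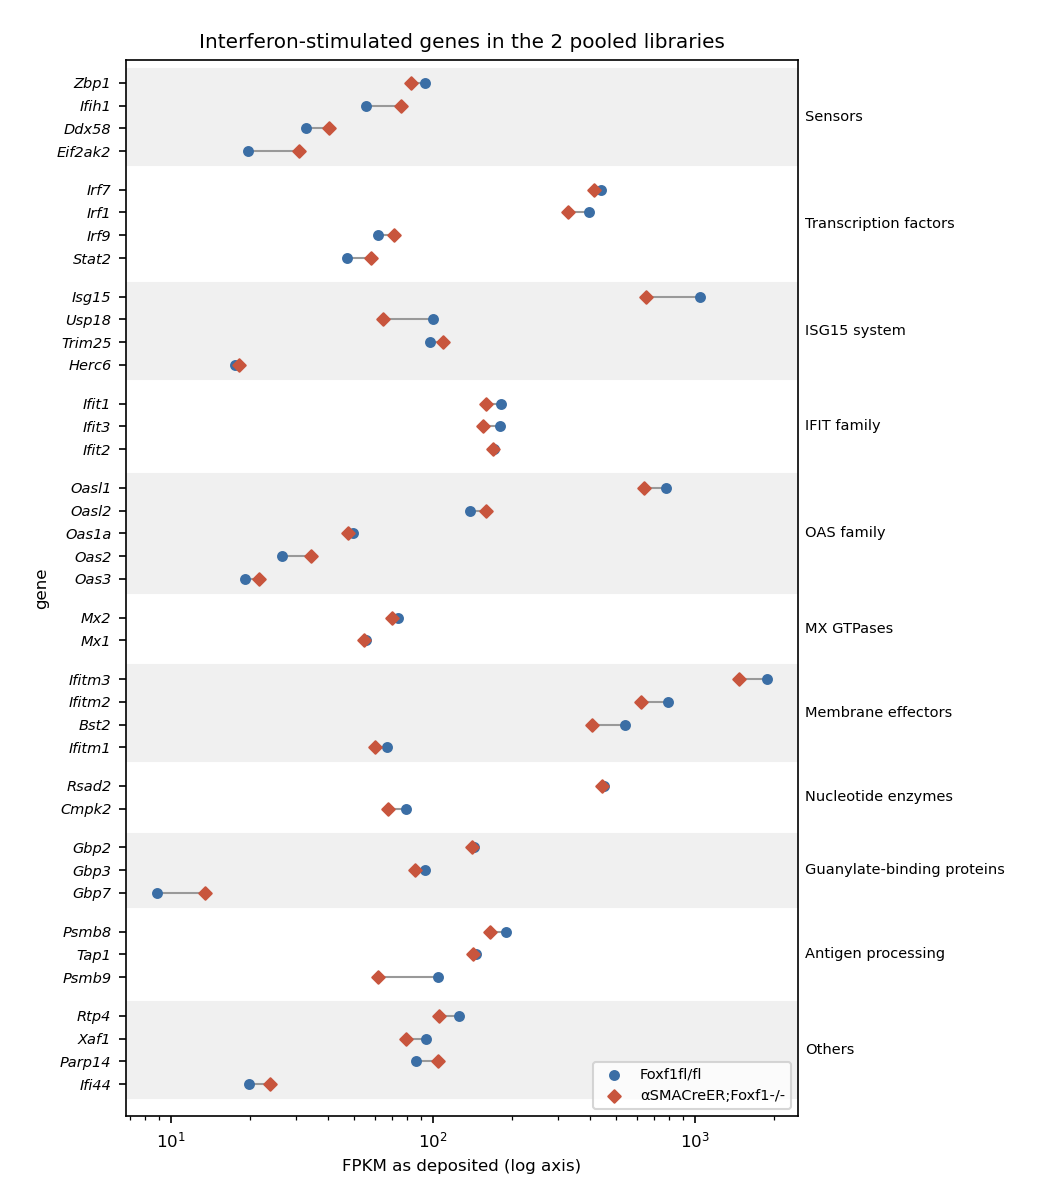
FPKM as deposited (log axis) of the 38 interferon-stimulated genes, grouped by role, with circles for the Foxf1fl/fl library and diamonds for the αSMACreER;Foxf1-/- library (1 pooled library each, no error bar). Levels span from 8.83 for Gbp7 to 1895 for Ifitm3, while the distance between the genotypes is small for most genes and widest for Psmb9, Isg15, Usp18, Eif2ak2 and Gbp7.

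Differences between the genotypes were small for most of these genes. Fold changes are log2 of FPKM plus 0.1, αSMACreER;Foxf1-/- minus Foxf1fl/fl, after dividing αSMACreER;Foxf1-/- values by 1.02, the median ratio over 11877 genes that reach 1 FPKM in each library. Eif2ak2 alone was at least 1.5-fold higher in αSMACreER;Foxf1-/- cells, 1 of 38 genes (2.63%) compared with 12.8% of all 12701 genes. Psmb9, Isg15 and Usp18 were at least 1.5-fold lower, 3 of 38 (7.89%) compared with 13.2% of all genes. Because interferon-stimulated genes are abundant, the same counts were set beside the 8486 genes that average 5 FPKM or more, of which 8.07% were higher and 11.1% lower. Both shares were below these, but they rest on 1 and 3 genes and do not set the list apart from the background. The median interferon-stimulated gene had 95.9 FPKM in control cells, so neither background was matched in level.

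The median log2 fold change was -0.097 over the 38 genes, with a range from -0.78 to 0.62, and 0.0050 over all genes. The median size of the difference, whatever its direction, was 0.24 for interferon-stimulated genes, 0.33 for all genes and 0.29 for those that average 5 FPKM or more. Of the 38 genes, 13 were above 0 and 25 below. Approximate 95% counting intervals excluded 0 for 32 genes, 12 above and 20 below, but they cover the sampling of reads alone and not differences between animals, cell preparations or libraries. When both libraries were instead scaled to an equal FPKM sum, each log2 fold change rose by 0.19, the median of all genes moved to 0.20, and that of the interferon-stimulated genes to 0.096. In that scaling 23 genes were above 0, 3 were at least 1.5-fold higher (Eif2ak2, Gbp7 and Ifih1) and Psmb9 alone was lower, compared with 21.2% higher and 8.90% lower of all genes. Tap1, Gbp2, Gbp3, Ifit2, Ifitm1, Irf7, Mx1, Mx2, Oas1a and Rsad2 then turned from below to above 0. Directions in the paragraphs that follow are relative to the median gene.

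Fold change followed transcript length in these libraries, for interferon-stimulated genes and for genes as a whole. Across the 38 genes, Spearman's rho between log2 fold change and the longest annotated transcript was 0.83, and it was 0.45 across all genes. These points come from the same pair of libraries and are a description. All 10 interferon-stimulated genes shorter than 2000 bases were below 0, with a median of -0.33, whereas 9 of the 10 genes of 4000 bases or more were above 0, with a median of 0.25. Of the 18 genes in between, 4 were above 0 and 14 below, with a median of -0.11. These length limits were chosen after the values were seen.

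To set each gene beside others of its length, all genes were placed in 20 groups of transcript length and the median of the group was subtracted. The 635 genes from 552 to 982 bases, the group that holds the shortest interferon-stimulated genes, had a median of -0.41, and the 636 genes from 6387 to 7769 bases, the group of the longest one, had 0.37. After subtraction the interferon-stimulated genes had a median of -0.06 and a range from -0.77 to 0.44, and rho with length was 0.13. Psmb9 then remained at least 1.5-fold lower, and no gene was at least 1.5-fold higher, beside 11.2% and 10.0% of all genes. The median annotated transcript was also used in place of the longest one, an alternative chosen after seeing the data. Psmb9 and Isg15 were then lower and Eif2ak2 higher, beside 11.5% and 12.4% of all genes, and rho was 0.61. The part that transcript length has in any single difference was not tested.

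**Figure D2:**
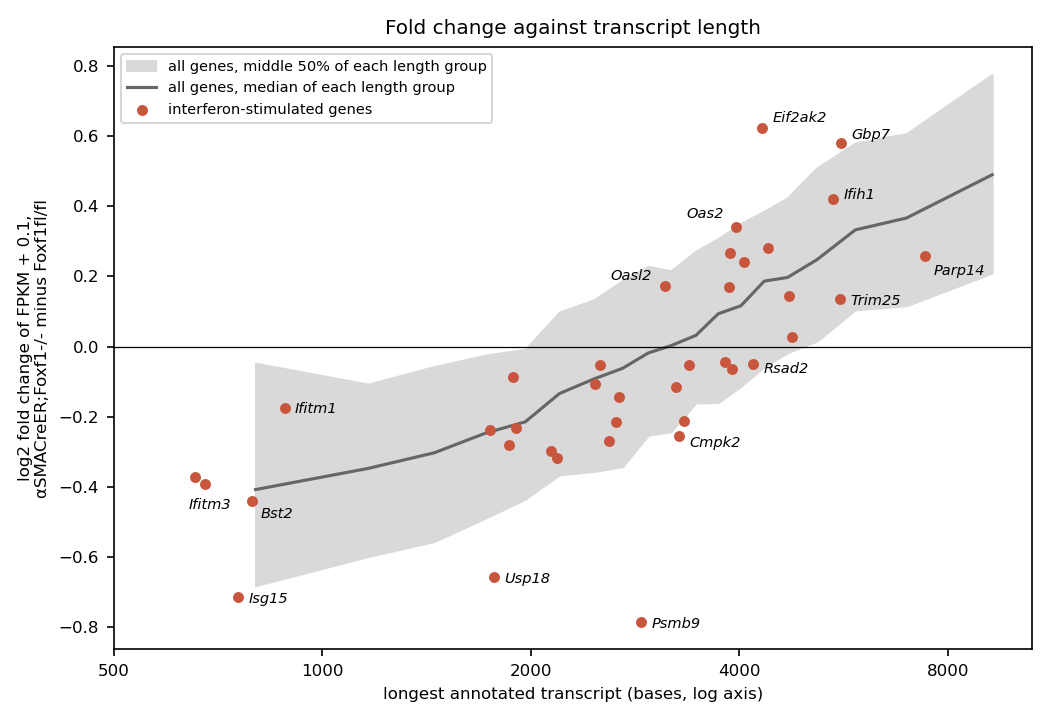
Log2 fold change of FPKM + 0.1, αSMACreER;Foxf1-/- minus Foxf1fl/fl, against the longest annotated transcript in bases (log axis), with points for the 38 interferon-stimulated genes, a line for the median and a band for the middle 50% of all genes in each length group. Most points run along the line (rho of 0.83 among them), and Psmb9, Usp18, Isg15, Cmpk2 and Eif2ak2 lie outside the middle 50% of their length group.

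The nucleic acid sensors were the group with the largest positive differences. Eif2ak2 (ENSMUSG00000024079, chromosome 17 from 78852564 to 78882573 of GRCm38) encodes PKR, a kinase that is activated by double-stranded RNA and halts translation. Its level was 19.7 FPKM in control and 30.9 in knockout cells, which is 0.62 on the log2 scale (interval 0.50 to 0.75) on an estimated 789 and 1442 reads. Its fold of 1.54 lay just past the threshold. Beside genes of like length it lay at percentile 90.3, and its length-corrected value was 0.44. Ifih1 encodes MDA5, a cytosolic sensor of long double-stranded RNA, and was at 55.5 and 75.7 FPKM (log2 fold change 0.42, interval 0.35 to 0.49). Ddx58, which encodes the RNA sensor RIG-I, had 32.9 and 40.3 FPKM, a difference of 0.27 on the log2 scale. Here and in the next paragraphs, single values in brackets after the levels of control and knockout cells are log2 fold changes. Zbp1, a sensor of Z-form nucleic acid, went the other way at 93.9 and 82.5 (-0.21). Eif2ak2, Ifih1 and Ddx58 kept positive values after the length correction, with 0.17 for Ifih1 and 0.17 for Ddx58, and Zbp1 kept -0.21.

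The ISG15 system held 2 of the 3 genes past 1.5-fold on the lower side. In this system, a ubiquitin-like protein is attached to other proteins and removed again. Isg15 (ENSMUSG00000035692, chromosome 4 from 156199424 to 156200818) encodes the modifier itself, at 1047 FPKM in control and 649.7 in knockout cells (log2 fold change -0.71, interval -0.77 to -0.66). Usp18 (ENSMUSG00000030107, chromosome 6 from 121245906 to 121270917) encodes the protease that removes ISG15 and also restrains the type I interferon receptor. Its level was 100.2 and 64.7 FPKM (log2 fold change -0.66, interval -0.77 to -0.55), and its 1.58-fold difference lay just past the threshold, with Bst2 next below it at 1.36-fold. Both genes are short, and their length-corrected values were -0.31 for Isg15 and -0.41 for Usp18, neither past 1.5-fold. Among genes of like length they lay at percentiles 22.5 and 16.4. The ligases of the system did not share this direction. Herc6, which encodes the main ligase for ISG15 in mice, had 17.5 and 18.2 (0.03), and Trim25, a ligase that also acts on RIG-I, had 97.8 and 109.5 (0.14). After the length correction Herc6 and Trim25 were at -0.17 and -0.20. The enzymes upstream were listed with the pathway. Uba7 (the activating enzyme) had 43.5 and 33.8 (-0.39), and Ube2l6 (the conjugating enzyme) had 64.1 and 56.1 (-0.22). Their length-corrected values were -0.48 and 0.08, so that Ube2l6 turned above 0.

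Antigen processing genes held the largest negative difference. Psmb9 (ENSMUSG00000096727, chromosome 17 from 34181987 to 34187764) encodes an interferon-γ-induced catalytic subunit of the immunoproteasome, which cuts proteins into peptides for MHC class I. Its level was 104 FPKM in control and 61.7 in knockout cells (log2 fold change -0.78, interval -0.87 to -0.70) on an estimated 2734 and 1879 reads. It lay at percentile 6.62 among genes of like length, and the length correction left it at -0.77. That correction rests on the longest of its 7 annotated transcripts, 2884 bases. By median transcript length the value was -0.69. Its neighbours in the MHC differed less. Tap1, which encodes a subunit of the peptide transporter and is read from the opposite strand next to Psmb9, had 147 and 143 (-0.06, and above 0 with an equal FPKM sum). Psmb8, which encodes another immunoproteasome subunit, had 190.3 and 165 (-0.23). Length-corrected values were -0.18 for Tap1 and -0.02 for Psmb8. Of the pathway list, Tap2, also on chromosome 17, had 82.2 and 60.4 (-0.47, length-corrected -0.50). Psmb10, on chromosome 8, had 119 and 84.5 (-0.52, length-corrected -0.21). Tapbp, on chromosome 17, went the other way at 284 and 314 (0.12). Exons of Psmb9 and Tap1 share 212 bases on opposite strands, 5.79% of the exon bases of Psmb9, and the sources used here do not say whether strand was used in counting. The window of Psmb9 held neither element, and that of Psmb8 held a GAS match.

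**Figure D3:**
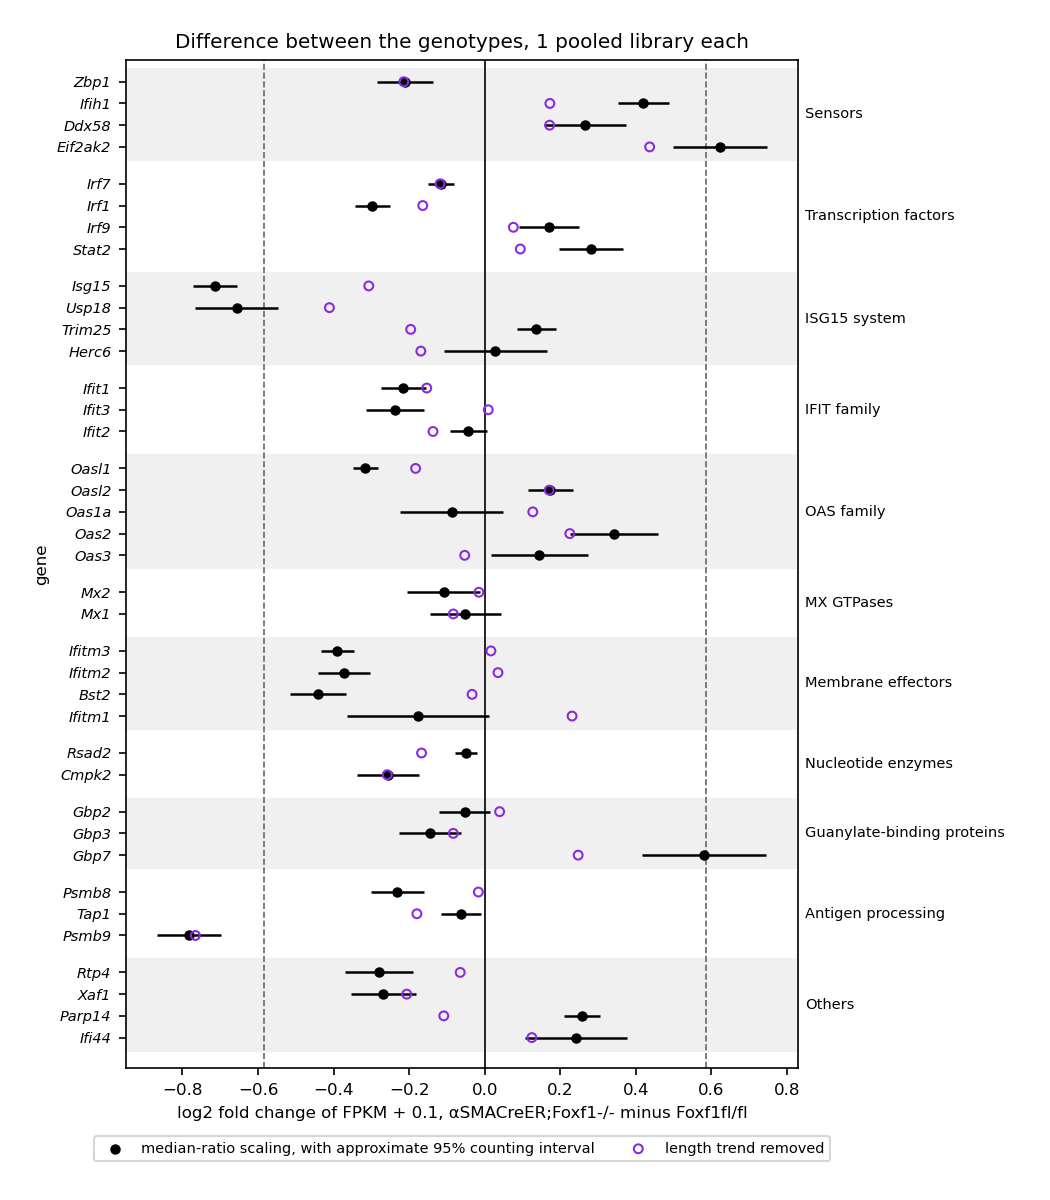
Log2 fold change of each interferon-stimulated gene, with filled points for median-ratio scaling, horizontal bars for approximate 95% counting intervals and open points for values with the length trend removed. Dashed lines mark 1.5-fold, which Eif2ak2 passes on the right and Psmb9, Isg15 and Usp18 pass on the left, while Psmb9 alone passes it with an open point.

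The membrane effectors were the most abundant group and all 4 were below 0, although Ifitm1 turned above 0 with an equal FPKM sum. Ifitm3, Ifitm2 and Ifitm1 encode small membrane proteins that block fusion of viruses with cells. Ifitm3 had 1895 and 1472 (-0.39), Ifitm2 had 794 and 625 (-0.37) and Ifitm1 had 66.7 and 60.1 (-0.18). Bst2, which encodes tetherin, a protein that holds budding virus on the cell surface, had 541 and 406 (-0.44). All 4 transcripts are short, from 655 to 882 bases. Length-corrected values were 0.02, 0.04 and 0.23 for Ifitm3, Ifitm2 and Ifitm1 and -0.03 for Bst2, so that Ifitm genes turned above 0. Ifitm2 shared 42.0% of its 75-base windows with other annotated genes, so that its reads cannot be placed with certainty.

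The IFIT family, which encodes proteins that bind viral RNA, differed by less. Ifit1 had 183 and 160.1 (-0.22), Ifit3 had 180 and 156 (-0.24) and Ifit2 had 172 and 170 (-0.04). Ifit2 turned above 0 with an equal FPKM sum and Ifit3 did so after the length correction, at 0.01. Ifit3 shared 41.1% of its 75-base windows with its near copy Ifit3b. The 3 genes lie in 1 cluster on chromosome 19 and had nearly the same level in both libraries, from 172 to 183 FPKM in control and from 156 to 170 in knockout cells.

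The OAS family, whose enzymes make the 2'-5' oligoadenylate that activates RNase L, was divided. Oas2 had 26.5 and 34.3 (0.34), Oas3 had 19.3 and 21.7 (0.14) and Oas1a had 49.5 and 47.4 (-0.09). Their order followed length in part, and after the correction Oas2 was at 0.23, Oas3 at -0.05 and Oas1a at 0.13. Oas1a shared 47.6% of its 75-base windows with Oas1g, which is adjacent in the same cluster, and its value is uncertain for that reason. The OAS-like genes were higher in level and went in opposite directions. Oasl1, which restrains translation of Irf7, had 780.5 and 638 (-0.32), and Oasl2 had 139 and 159 (0.17). Oasl1 and Oasl2 kept these directions after the correction, at -0.18 and 0.17.

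The MX GTPases and the nucleotide enzymes were all within 1.5-fold, and Cmpk2 differed most among them. Mx1 had 55.6 and 54.7 (-0.05) and Mx2 had 73.7 and 69.7 (-0.11). Most inbred mouse strains, the one used here among them, carry an Mx1 allele that makes no functional protein. Rsad2, which encodes viperin, an enzyme that makes a chain-terminating nucleotide, was abundant at 451 and 444 (-0.05). Mx1, Mx2 and Rsad2 turned above 0 with an equal FPKM sum. Cmpk2, a mitochondrial nucleotide kinase gene next to Rsad2, had 79.4 and 67.7 (-0.26) and kept -0.26 after the length correction.

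The guanylate-binding proteins, GTPases that attack the vacuoles of intracellular microbes and are induced most by interferon γ, showed 1 gene apart from the others. Gbp7 (ENSMUSG00000040253, chromosome 3 from 142530342 to 142550149) was at 8.83 and 13.5 FPKM (log2 fold change 0.58, interval 0.42 to 0.74), and its fold of 1.495 lay just under the threshold. It was the least abundant gene of the list, on an estimated 467 and 829 reads, and 11.4% of its 75-base windows were shared with other genes. Its length-corrected value was 0.25. Gbp2 had 144 and 141 (-0.05) and Gbp3 had 93.1 and 85.8 (-0.14), and both turned above 0 with an equal FPKM sum. All 3 genes had an ISRE core in a promoter window, and Gbp3 also had a window without a match.

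Transcription factors of the response were divided as well. Irf7, the factor that amplifies type I interferon production, had 439 and 413 (-0.12), and Irf1, induced by interferon γ, had 396 and 328 (-0.30). Irf7 turned above 0 with an equal FPKM sum. Length-corrected values were -0.12 for Irf7 and -0.16 for Irf1. The ISGF3 subunits were both above 0, with 62.0 and 71.1 (0.17) for Irf9 and 47.0 and 58.2 (0.28) for Stat2, and they stayed above 0 at 0.08 and 0.09 after the length correction. Among the remaining genes, Parp14, an ADP-ribosyltransferase gene, had 86.0 and 105 (0.26) and Ifi44 had 19.9 and 24.0 (0.24). Xaf1, a pro-apoptotic factor gene, had 93.9 and 79.4 (-0.27), and Rtp4 had 126 and 105 (-0.28). After the length correction Parp14 turned below 0, at -0.11, and Ifi44 was at 0.12. Xaf1 and Rtp4 were then at -0.21 and -0.06.

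Genes classically driven by ISGF3 and genes classically driven through GAS elements or IRF1 were also set side by side. The 31 genes of the first kind had a median log2 fold change of -0.09, with 1 higher and 2 lower past 1.5-fold. The 7 analysed genes of the second kind (Irf1, Gbp2, Gbp3, Gbp7, Psmb8, Psmb9 and Tap1) had a median of -0.14. Of these, 0 were higher and 1 lower, and 6 of 7 were below 0. Of all genes, 12.8% were higher and 13.2% lower. With an equal FPKM sum Tap1, Gbp2 and Gbp3 turned above 0. So did Ifit2, Ifitm1, Irf7, Mx1, Mx2, Oas1a and Rsad2 of the first kind. Genes with an ISRE core in any window had a median of -0.05 (18 genes), and those without had -0.18 (13 genes). These medians were not tested against each other.

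Other genes of the interferon pathway were read from a list of 100 genes, of which 99 were analysed and 90 averaged 1 FPKM or more. Past 1.5-fold, 2 were higher and 3 lower, beside the same 12.8% and 13.2% of all genes, and their median was -0.0063. With an equal FPKM sum 11 were higher and 2 lower, beside 21.2% and 8.90% of all genes. With the length trend removed 2 were higher and 1 lower, beside 10.0% and 11.2% of all genes. Among the ligands, Ifnb1, which encodes interferon β, was at 43.8 FPKM in control and 25.2 in knockout cells (log2 fold change -0.82, interval -1.11 to -0.53) on an estimated 235 and 157 reads. Its transcript is 750 bases long, and the length-corrected value was -0.42. Ifng, which encodes interferon γ, had 18.9 and 15.4 (-0.32), and its length-corrected value was 0.03. Ifna1, Ifna2, Ifne and Ifnl3 were listed at 0 in both libraries, and Ifna4, Ifna5, Ifnk and Ifnl2 stayed below 1 in both. Type I interferon RNA was therefore read almost wholly as Ifnb1 among the ligands listed.

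The receptors were expressed in both genotypes. Ifnar1 and Ifnar2, the subunits of the type I receptor, had 33.6 and 43.3 (0.34) and 124 and 127 (0.02), and Ifngr1 and Ifngr2, those of the interferon γ receptor, had 72.0 and 74.8 (0.03) and 78.9 and 78.7 (-0.03). Il10rb, a chain shared with the interferon λ receptor, had 109 and 108 (-0.04), whereas Ifnlr1, the chain specific to it, was at 0.84 and 0.78. The receptor kinases were all above 0. Jak1 had 89.2 and 114 (0.33), Jak2 had 101 and 126 (0.30) and Tyk2 had 9.22 and 11.7 (0.31). These are long transcripts, and the length-corrected values were 0.14, 0.05 and 0.11.

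Of the remaining pathway genes, 4 passed 1.5-fold. Tlr9, the endosomal receptor for unmethylated DNA, had 7.77 and 15.6 (0.97), and Slfn5, an interferon-induced Schlafen gene, had 42.8 and 74.8 (0.78). Socs1, a feedback inhibitor of JAK kinases that interferons induce, had 94.3 and 57.0 (-0.75), and Nmi, a gene whose protein binds Myc proteins, had 73.9 and 39.9 (-0.91). After the length correction Tlr9 and Socs1 were at 0.93 and -0.73, and Slfn5 and Nmi were at 0.45 and -0.57. Of the 54 other induced genes analysed, 52 were within 1.5-fold, among them Cxcl10, a chemokine with 3828 and 3165 (-0.30), and B2m, the light chain of MHC class I with 4831 and 4446 (-0.15).

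**Figure D4:**
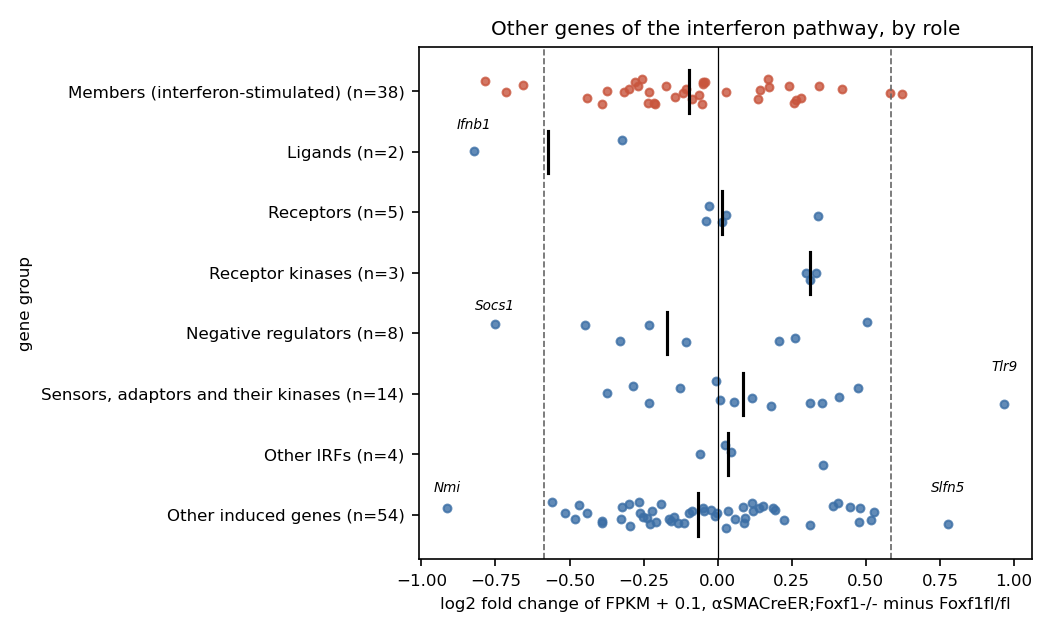
Log2 fold change of FPKM + 0.1, αSMACreER;Foxf1-/- minus Foxf1fl/fl, for the 38 interferon-stimulated genes and the 90 other pathway genes that average 1 FPKM or more, by role, with a point for each gene and a black bar for the median of each role. Dashed lines mark 1.5-fold, which Tlr9 and Slfn5 pass on the right and Nmi, Ifnb1 and Socs1 pass on the left.

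Marker genes of the cell types that the preparation could hold also differed between the libraries. The 10 macrophage and Kupffer cell markers had a summed FPKM of 10361 and 8753 and a median log2 fold change of -0.33. Of these, 9 of 10 were below 0, Adgre1 only barely (-9.2e-05), and Clec4f (-0.60) was past 1.5-fold. After the length correction their median was -0.12 and Clec4f was at -0.50, within 1.5-fold. The 4 monocyte markers had 1335 and 1360, with a median of 0.31. Of these, 3 were above 0, and Plac8 went the other way at 507 and 378 (-0.45). The 5 markers of plasmacytoid dendritic cells, the main producers of type I interferon in blood, had 93.8 and 111, with a median of 0.32. Klk1 (0.01) and Siglech (0.12) had intervals that include 0, and Tcf4 was at -0.17 when length-corrected. The 8 T and NK cell markers had 124 and 150. All 7 that average 1 FPKM or more were above 0, with a median of 0.27 and Cd4 (1.11) past 1.5-fold. Intervals included 0 for 5 of these 7. The 8 endothelial markers had 732 and 750. Of these, 7 were above 0 and Clec4g (-0.47) below, with a median of 0.21, or 0.02 when length-corrected. Conventional dendritic cell markers had 14.6 and 19.0, with Clec9a (0.82) past 1.5-fold, and B cell markers had 58.1 and 62.1. All 5 neutrophil markers were at least 1.5-fold lower, with a median of -1.96 and Ly6g at 9.82 and listed at 0, and so were all 9 hepatocyte markers, with a median of -1.66. Length-corrected medians were -1.90 for neutrophil and -1.44 for hepatocyte markers. The 10 stellate cell and myofibroblast markers had 339 and 484, and the collagens Col1a1 and Col3a1 and the proteoglycan gene Dcn made up most of it. Over the 8 that average 1 FPKM or more the median was 0.51, or 0.18 when length-corrected. Length-corrected values were 0.19 for Col1a1, 0.16 for Col3a1 and 0.33 for Dcn. Acta2 (-0.48) and Tagln (-0.37), genes of the contractile apparatus, were below 0 in the same list, and Des (0.89) was above. The part of these cell type differences in the values of the interferon-stimulated genes was not tested.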

How the data were processed

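RNA-seq was performed by the authors on total RNA of pooled adherent liver cells, with 1 library per genotype (TruSeq RNA kit, single-end reads of 75 bases, approximately 10 M reads). The submitters' processing notes name TopHat, DESeq and mm10, and the methods name Cufflinks. The authors deposited Cufflinks FPKM values for Ensembl genes, relative to transcript length and to mapped fragments. Of 38320 entries, 36574 (95.4%) had a symbol in GENCODE M21 of GRCm38, and a symbol with several entries was represented by its most abundant one.

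Values were scaled by the median ratio and log2-transformed after adding 0.1, a scale that understates changes of low genes. FPKM are not counts, so a count test was not applied, and no test was planned. Counting intervals (95%) used reads estimated on the longest transcript with an assumed fragment length of 200 bases. The threshold of 1.5-fold is that of the methods. Promoter windows came from RefSeq. Upstream stretches were planned for the 3 highest and 3 lowest genes. Those of Psmb9 and Eif2ak2 overlap annotated exons and are not shown, and Usp18 had no window. All interferon-stimulated genes are named, by role. An item planned for the pathway list is not reported here. The genes and lists were chosen with earlier results of these data known. The procedure was tested on simulated data. These held known changes and read sampling alone, with no length trend, so they cannot show how the procedure handles such a trend. Alternatives changed the pseudocount, scaling, length correction, handling of repeated symbols, filter and fold, and those by median transcript length and without genes with shared windows were chosen after seeing the data. Versions were matplotlib 3.10.9, scipy 1.17.1, pandas 2.3.3 and numpy 2.4.6 under Python 3.11.15.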

Additional observations from a re-analysis of the deposited data

How the results depend on the processing

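With 1 pooled library per genotype, no alternative gives a replicate check, and depth is known only as a rough estimate. No paired analysis was possible because there is 1 library for each genotype. Interferon-stimulated genes at least 1.5-fold higher numbered 1, and 2 under upper-quartile scaling, under FPKM as deposited or under a pseudocount of 0.01 (Gbp7 joined Eif2ak2). They numbered 3 at equal FPKM sums, and 0 once the length trend was removed or at 2-fold. Those lower numbered 3, and 1 at equal FPKM sums or once the length trend was removed (Psmb9 in both), and 0 at 2-fold. The median log2 fold change of -0.097 became 0.096 with an equal FPKM sum, in which every value shifts by 0.19. Other pathway genes higher numbered 2, and 11 with an equal FPKM sum, 5 without a filter on low values, 4 with the trend by median transcript length removed and 0 at 2-fold. Those lower numbered 3, and 1 with the length trend removed and 0 at 2-fold. Single genes left their counting interval in 38 cases at equal FPKM sums, 26 after removal of the length trend, 25 with that by median transcript length, 3 with upper-quartile scaling and 0 with the other pseudocounts, FPKM as deposited or summed entries. Without the 6 genes that share over 10% of their 75-base windows, 1 of 32 was higher and 3 lower, and the median was -0.09. Where no construction shows it, the cause was not tested.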
